A study of Mus musculus with 3 samples.

Results

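As log2 ratios, the 5 genes Nmnat1, Plekha3, Nek8, Selenbp1 and Ly6c had promoters with little H3K9me2 relative to PRDM2 in arrested mouse myoblasts. They were chosen by the largest promoter differences of PRDM2 minus H3K9me2 among 16079 gene names, and they held ranks 1, 2, 3, 4 and 6 among 16164 promoters. The difference, and the PRDM2 and H3K9me2 values that make it, thus chose the genes. These values are given as a description with no test. As ranks within each array, the PRDM2 and H3K9me2 values of Nmnat1, Selenbp1 and Ly6c were close to each other. With another background correction (normexp) the difference at Ly6c was -0.37. The genes carried 20 probes in all, every one of which was used.

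Chromatin came from C2C12 cells, an established mouse myoblast line, arrested in G0 by growth in medium with 2% methylcellulose. The cells were crosslinked in 1% formaldehyde, with 0.125 M glycine to stop the reaction. Immunoprecipitated (IP) DNA carried the dye Cy5, input DNA of the same chromatin carried Cy3, and both were hybridised together to a custom Agilent array of mouse promoters. The antibody recognised PRDM2 on 2 arrays and H3K9me2 on 1 array, and each array carried its own input DNA as the reference. The labels describe neither the antibody products nor separate cultures, and no array of a nonspecific antibody was analysed here. The spread between the PRDM2 arrays may therefore be technical, and the H3K9me2 values have no replicate.

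PRDM2, also known as RIZ, is a zinc finger protein of the PRDM family whose PR domain is related to the SET domain of histone methyltransferases and methylates lysine 9 of histone H3. H3K9me2, the dimethylated form of this lysine, is a mark of silent chromatin that in mammals is laid down largely by the enzymes EHMT1 and EHMT2 and is commonly low at active promoters. In muscle, C2C12 cells held in suspension are a model of the quiescence of satellite cells, in which PRDM2 has been studied as a regulator of genes for proliferation and differentiation.

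The genes belong to unrelated processes. Nmnat1 encodes the nuclear enzyme that joins nicotinamide mononucleotide to ATP to make NAD. Plekha3, also called FAPP1, encodes a protein that binds phosphatidylinositol 4-phosphate and the GTPase ARF1 at the trans-Golgi network. Nek8 encodes a kinase of the NIMA family that lies in the inversin compartment of primary cilia and whose mutation causes cystic kidney disease. Selenbp1 encodes a selenium-binding protein that oxidises methanethiol. Ly6c, which the RefSeq table lists as an older name of Ly6c1, encodes a surface antigen of monocytes, lymphocytes and endothelial cells held by a lipid anchor.

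Probe sequences are shown because each ratio was read from 1 of them and probes of the same promoter differed from each other. They are given 5′ to 3′ as in the array design, with CpG dinucleotides in capitals, and coordinates are those of the design. The genome build of the design is not stated in the labels or file headers. For Ly6c probe 1 the design gives a sequence of 56 bases, longer than the stretch its coordinates span, and both are shown as given. The first and last probes are given for Nek8, Selenbp1 and Ly6c, the probes with the largest and smallest difference for Nmnat1, and for Plekha3 both ends of the promoter with the probe where H3K9me2 exceeded PRDM2.
Nmnat1 probe 1, chr4:148327421-148327480: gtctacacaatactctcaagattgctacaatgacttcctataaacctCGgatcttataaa
Nmnat1 probe 3, chr4:148328540-148328589: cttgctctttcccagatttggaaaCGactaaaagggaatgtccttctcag
Plekha3 probe 1, chr2:76476265-76476309: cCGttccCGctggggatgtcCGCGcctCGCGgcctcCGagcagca
Plekha3 probe 2, chr2:76476433-76476477: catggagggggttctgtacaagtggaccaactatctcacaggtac
Plekha3 probe 3, chr2:76476680-76476730: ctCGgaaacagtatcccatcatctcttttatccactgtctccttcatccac
Plekha3 probe 7, chr2:76477557-76477615: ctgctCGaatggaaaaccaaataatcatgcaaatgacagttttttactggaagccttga
Nek8 probe 1, chr11:77991796-77991855: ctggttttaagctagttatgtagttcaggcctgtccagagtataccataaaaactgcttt
Nek8 probe 3, chr11:77992686-77992736: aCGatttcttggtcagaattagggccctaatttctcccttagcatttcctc
Selenbp1 probe 1, chr3:95016307-95016356: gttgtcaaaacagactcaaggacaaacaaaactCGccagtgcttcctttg
Selenbp1 probe 3, chr3:95018691-95018738: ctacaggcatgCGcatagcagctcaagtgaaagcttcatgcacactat
Ly6c probe 1, chr15:74874597-74874651: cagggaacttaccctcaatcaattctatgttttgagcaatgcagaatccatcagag
Ly6c probe 3, chr15:74875438-74875492: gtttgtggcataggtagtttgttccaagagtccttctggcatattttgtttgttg

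In the share without CpG these probes resembled the array at large, but GC contents between 35% and 45% were more common among them. The mean GC content of the promoters lay at percentiles 17.8 (Nmnat1), 72.3 (Plekha3), 18.3 (Nek8), 41.2 (Selenbp1) and 28.7 (Ly6c) of all promoters. Of the 20 probes, 16 had a GC content between 35% and 45%, a window that held 55.6% of all probes, and 10 had no CpG, beside 49.7% of all probes. Plekha3 probe 1 stood apart, with a GC content of 75.6% and 7 CpG. Probes 1 and 2 of Plekha3 were the only ones of the 20 found whole in the RefSeq promoter sequences of GRCm38.p6, in the entry of the long non-coding RNA gene Gm39860. In that build they lay on the plus strand at chr2:76675426-76675470 and chr2:76675594-76675638, or 121 to 165 and 289 to 333 bases after the annotated start of Plekha3. The remaining probes had no exact match in these windows and were not placed on that build.

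Each value below is the log2 of IP over input, from the processed signal of the scanner files, minus the median probe of the same array, so that 0 is the median probe and not equal IP and input. Before this step the median probe of PRDM2 array 1 had -0.91, that of PRDM2 array 2 had -0.80 and that of the H3K9me2 array had -0.27. A promoter value is the mean over its probes. Afterwards the median promoter had 0.58 and 0.43 for PRDM2, against -0.23 for H3K9me2. The low end reached further down on the H3K9me2 array: the 1st percentile of promoters was -0.63 and -0.66 on the PRDM2 arrays and -1.90 on the H3K9me2 array. The median IP signal before processing was 96.1 and 88.7 on the PRDM2 arrays and 192 on the H3K9me2 array, beside 65.3, 63.7 and 29.9 in the negative-control spots of the same arrays. The scanner software had multiplied the IP dye by 16.1 and 18.4 on the PRDM2 arrays and by 2.86 on the H3K9me2 array. Whether these scales set how low a ratio can go was not tested.

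**Figure D1:**
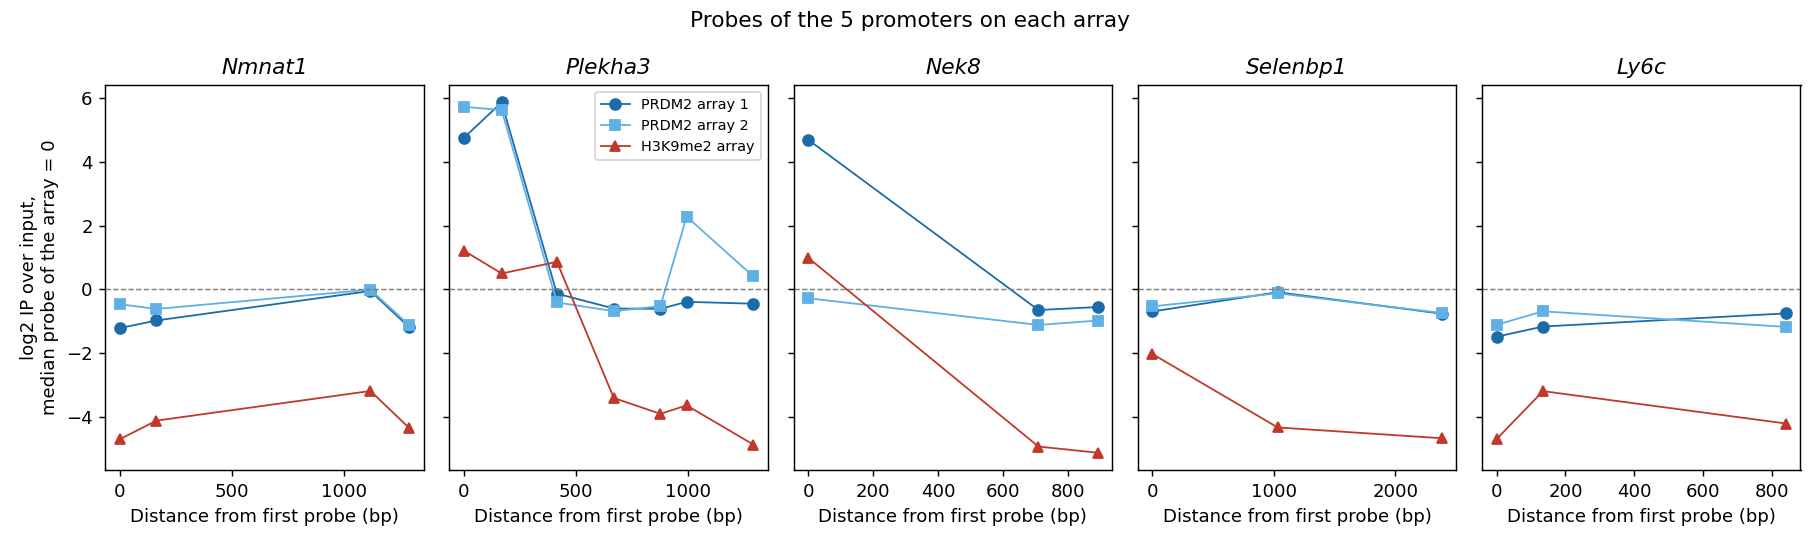
Log2 IP over input (vertical axis, median probe of the array at 0) against the distance in bp from the first probe of each promoter (horizontal axis), for each of the 3 arrays. Both PRDM2 arrays lie under 0 at 15 of the 20 probes, and H3K9me2 (triangles) lies under -3 at 15 of them.

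The 5 promoters fell into different patterns. At Nmnat1, Selenbp1 and Ly6c, PRDM2 was below the median probe on both arrays and H3K9me2 was far below it. At Plekha3, PRDM2 was above the median probe on both arrays, mainly through its first 2 probes, and H3K9me2 was low at its last 4. At Nek8, the PRDM2 arrays disagreed at 1 probe. Both PRDM2 values were thus under the median probe at 3 of 5 promoters, beside 10.1% of all promoters, and above it at 1. On single arrays 3 of 5 were under the median probe on PRDM2 array 1, beside 15.3% of all promoters, 4 of 5 on PRDM2 array 2, beside 21.4%, and 5 of 5 on the H3K9me2 array, beside 64.0%. H3K9me2 was under -3 at 4 of 5 promoters, beside 0.0681% of all promoters, but this value entered the choice of genes and nothing is read from the share. Over all promoters limma called the difference higher at 41.1% and lower at 1.6% (adjusted p under 0.05), counts in which the chosen genes are included.

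Nmnat1 was low for both antibodies, and its H3K9me2 value was largely below what the array could measure. Its 4 probes, at chr4:148327421-148328765, averaged -0.86 and -0.55 on PRDM2 arrays 1 and 2, against -4.09 on the H3K9me2 array. PRDM2 averaged -0.71 ± 0.22 (SD, n = 2 arrays), and the difference of PRDM2 minus H3K9me2 was 3.39. The PRDM2 values lay at percentiles 0.254 and 1.95 of their arrays. With dim probes at their upper bound the H3K9me2 value was -2.998, so that its exact rank among promoters is not settled.

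All 4 Nmnat1 probes were low on the H3K9me2 array and none was high for PRDM2. Probe 1 had -1.22 and -0.47 on the PRDM2 arrays, against -4.71 on the H3K9me2 array. Probe 2 had -0.98 and -0.61 for PRDM2, against -4.12 for H3K9me2. Probe 3, the highest of the promoter for either antibody, had -0.05 and -0.01 for PRDM2, against -3.19 for H3K9me2. Probe 4 had -1.19 and -1.13 for PRDM2, against -4.35 for H3K9me2. The smallest difference was 3.16, at probe 3, the only probe whose H3K9me2 IP was measured well above background, and the largest computed one was 3.87, at probe 1. The IP signal behind them was weak: it was well above background at 2 and 2 of 4 probes on the PRDM2 arrays and at 1 of 4 on the H3K9me2 array. Probes 2 and 4 were not well above background in the IP on any of the 3 arrays, so that neither side of their difference was measured.

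Selenbp1 resembled Nmnat1, with closer PRDM2 arrays. Its 3 probes, at chr3:95016307-95018738, averaged -0.51 and -0.47 on the PRDM2 arrays, against -3.68 on the H3K9me2 array. PRDM2 averaged -0.49 ± 0.03 (SD, n = 2), and the difference was 3.19. The PRDM2 values lay at percentiles 1.78 and 3.19. The H3K9me2 value with dim probes at their upper bound was -3.05, which leaves its exact rank unsettled.

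The Selenbp1 probes were further apart than those of the other genes, over 2432 bp, and H3K9me2 differed among them. Probe 1 had -0.69 and -0.53 for PRDM2, against -2.03 for H3K9me2, and its H3K9me2 IP signal was well above background. Probe 2 had -0.09 and -0.12 for PRDM2, against -4.34 for H3K9me2. Probe 3 had -0.76 and -0.74 for PRDM2, against -4.67 for H3K9me2. At probes 2 and 3 the H3K9me2 IP signal was not well above background, whereas the PRDM2 IP was so at all 3 probes on both arrays. The largest difference, 4.23, was at probe 2, and the smallest, 1.42, was at probe 1.

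Ly6c was the only one of the 5 with IP and input well above background at all probes on all 3 arrays. Its 3 probes, at chr15:74874597-74875492, averaged -1.13 and -0.99 on the PRDM2 arrays, against -4.04 on the H3K9me2 array. PRDM2 averaged -1.06 ± 0.10 (SD, n = 2), and the difference was 2.97. The promoter was the 3rd and 25th lowest of 16164 on PRDM2 arrays 1 and 2, and the 2nd lowest as computed on the H3K9me2 array. Low ratios were thus found with both antibodies, but the PRDM2 IP signal itself was not low. After processing it was 669, 903 and 1566 at probes 1, 2 and 3 on PRDM2 array 1, where the median probe had 502. On PRDM2 array 2 it was 918, 1106 and 1211, beside a median of 463. The H3K9me2 IP signal was 84.6, 264 and 207, beside a median of 469.

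The 3 Ly6c probes lacked CpG and had low ratios throughout. Probe 1 had -1.49 and -1.11 for PRDM2, against -4.70 for H3K9me2. Probe 2 had -1.17 and -0.69 for PRDM2, against -3.19 for H3K9me2. Probe 3 had -0.75 and -1.18 for PRDM2, against -4.21 for H3K9me2. The differences were largest at probe 1, with 3.40, and smallest at probe 2, with 2.27. The input signal of the promoter was high on every array, with log2 values of 1.98 and 2.09 over the array median for PRDM2 and 2.11 for H3K9me2, or percentiles 99.95, 99.95 and 99.94 of all promoters. Ly6c1 has close relatives on the same chromosome, such as Ly6c2, and DNA of several copies hybridising to 1 probe was not tested.

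Plekha3 was the only one of the 5 with PRDM2 above the median probe on both arrays. Its 7 probes, at chr2:76476265-76477615, averaged 1.21 and 1.78 on the PRDM2 arrays, against -1.89 on the H3K9me2 array. PRDM2 averaged 1.49 ± 0.40 (SD, n = 2), and the difference of 3.39 was the second largest of all promoters. The PRDM2 values lay at percentiles 82.7 and 97.6, against percentile 1.04 for H3K9me2. As the median over its probes, PRDM2 was 0.0079 and H3K9me2 -3.41, and with normexp they were 0.57 and -0.13.

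The Plekha3 mean joined a PRDM2 peak at one end to low H3K9me2 at the other. Probe 1 had 4.76 and 5.73 for PRDM2, against 1.22 for H3K9me2. Probe 2 had 5.87 and 5.64 for PRDM2, against 0.50 for H3K9me2. These are the GC-rich probe and its neighbour that matched RefSeq just inside the start of the gene, and they were the only 2 of the 20 probes with PRDM2 above the median probe on both arrays. At probe 2 the unprocessed IP signal was 2484 and 2275 on the PRDM2 arrays and 606 on the H3K9me2 array, beside input signals of 209, 242 and 357. At probe 1 the IP signal was lower, at 201 and 458 for PRDM2 and 184 for H3K9me2, over inputs of 65.0, 65.3 and 86.4. The input of probe 1 relative to the array median was -2.68 and -1.88 on the log2 scale for PRDM2, and -1.78 for H3K9me2, so that its ratios rest on a dim input.

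From probe 3 on, PRDM2 was near or under the median probe at Plekha3, except at probe 6 on PRDM2 array 2. Probe 3 was the only one of the 20 with H3K9me2 above PRDM2, having -0.13 and -0.41 for PRDM2, against 0.87 for H3K9me2. Probe 4 had -0.60 and -0.68 for PRDM2, against -3.41 for H3K9me2, and probe 5 had -0.61 and -0.52, against -3.91. At probe 6 the PRDM2 arrays disagreed, with -0.39 and 2.29, against -3.64 for H3K9me2. Probe 7 had -0.45 and 0.41 for PRDM2, against -4.87 for H3K9me2. The H3K9me2 IP signal was not well above background at probes 4 to 7. The largest difference of the promoter, 5.25, was at probe 2 and the smallest, -1.14, at probe 3.

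Nek8 rested on 1 probe of 1 array for its PRDM2 mean. Its 3 probes, at chr11:77991796-77992736, averaged 1.17 on PRDM2 array 1 and -0.79 on PRDM2 array 2, against -3.02 on the H3K9me2 array. PRDM2 averaged 0.19 ± 1.38 (SD, n = 2), the widest spread of the 5 genes, and the difference was 3.21. The PRDM2 arrays placed the promoter at percentiles 81.2 and 0.483, against percentile 0.0681 for H3K9me2, which rests on 2 probes with dim H3K9me2 IP.

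At Nek8 probe 1, PRDM2 array 1 read 4.70 and PRDM2 array 2 read -0.28, against 0.99 on the H3K9me2 array. The unprocessed IP signals of this probe were 820 and 77.6 on the PRDM2 arrays and 309 on the H3K9me2 array. Probe 2 had -0.65 and -1.12 for PRDM2, against -4.94 for H3K9me2, and probe 3 had -0.55 and -0.98, against -5.13. The disagreement of the PRDM2 arrays was thus largest at probe 1, which was also the only probe of the promoter with H3K9me2 above the median probe. The largest difference, 4.36, was at probe 3 and the smallest, 1.22, at probe 1. Without probe 1 the promoter had -0.60 and -1.05 for PRDM2, against -5.03 for H3K9me2, and the difference was 4.21. On PRDM2 array 1 the IP signal was well above background at all 3 probes, on PRDM2 array 2 at 0 of 3, and on the H3K9me2 array at 1 of 3.

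**Figure D2:**
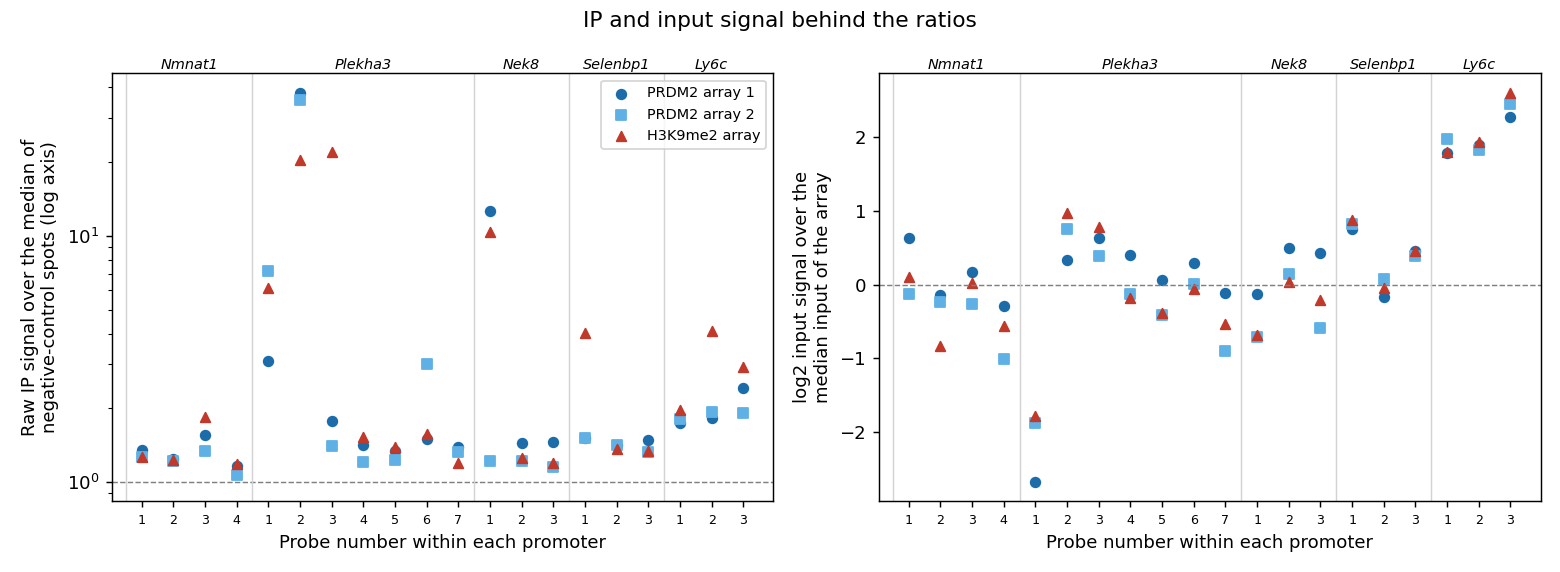
Left, the unprocessed IP signal of each probe divided by the median of the negative-control spots of its array (log axis, dashed line at the level of the negative controls). Right, the log2 input signal of each probe relative to the median input of the array (dashed line). In the IP most probes lie between 1 and 2 times the negative controls, and the highest are Plekha3 probes 2 and 3 and Nek8 probe 1 on some arrays; the 3 Ly6c probes have the highest input.

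Behind the low H3K9me2 values the input was measured at every probe, while the IP often was not. Input was well above background at all 20 probes on all 3 arrays, and no probe was saturated or an outlier spot. Of the 20 probes, 2 and 7 were not well above background in the IP of PRDM2 arrays 1 and 2, and 11 in the H3K9me2 IP. Such a probe has only an upper bound. That bound was approximated by 61.5, the lowest processed H3K9me2 signal well above background among all probes of the array. With this value in place of the dimmer ones, the difference came to 2.29 at Nmnat1, 2.88 at Plekha3, 2.04 at Nek8 and 2.56 at Selenbp1. It stayed at 2.97 at Ly6c, where every probe was measured. These values still hold probes whose PRDM2 IP was not well above background either: Nmnat1 probes 2 and 4 on both PRDM2 arrays, and Plekha3 probes 4 and 5 and all Nek8 probes on PRDM2 array 2.

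Single H3K9me2 values this low were common on the array, whereas whole promoters this low were not. H3K9me2 was under -3 at 15 of the 20 probes, beside 10.6% of all probes and 15.3% of probes with a GC content between 35% and 45%. These values entered the choice of genes, so nothing is read from the share. At 11 of the 20 probes the H3K9me2 IP was not well above background. The 5 promoters had 3 to 7 probes, beside a median of 15 over all promoters. The 50 promoters with the largest differences had a median of 6 probes and a median GC content of 44.0%, beside 43.9% over all promoters. The mean of few probes varies more than that of many; its part in these ranks was not tested.

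**Figure D3:**
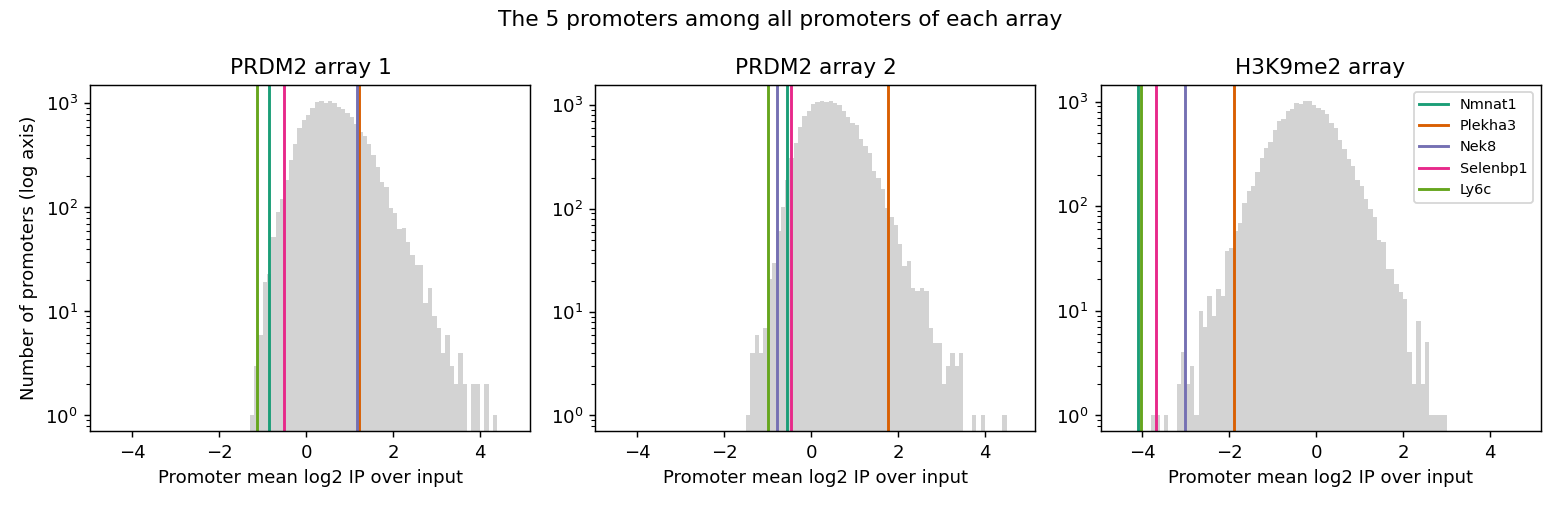
Number of promoters (log axis) by promoter mean of log2 IP over input on each array, with the 5 genes as coloured lines. On the PRDM2 arrays Ly6c, Nmnat1 and Selenbp1 lie in the low tail and Plekha3 in the upper part; on the H3K9me2 array Nmnat1, Ly6c, Selenbp1 and Nek8 lie at -4.09, -4.04, -3.68 and -3.02, below almost all promoters.

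When each array was read as ranks, the 5 genes separated. The mean of the PRDM2 percentiles of arrays 1 and 2, minus the H3K9me2 percentile, was 89.1 points at Plekha3, the largest of all promoters. The H3K9me2 percentile of Plekha3, 1.04, rests on probes 4 to 7, whose H3K9me2 IP was dim. With only probes bright in IP and input its H3K9me2 value was 0.86. At Nek8 the percentile difference was 40.8 points, which ranked 780th, though the PRDM2 percentiles averaged there were 81.2 and 0.483. The same quantity was 2.46 points at Selenbp1, which ranked 8128th, and 0.0742 points at Ly6c, which ranked 9001st, with Nmnat1 between them at rank 8625. The ratios of these 3 promoters were thus near the bottom for both antibodies as computed. The low end of the H3K9me2 array reached further down, and its part in their log2 differences was not tested. The reading as ranks was added after the values had been seen, and it uses the values that chose the genes.

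Promoters close by had higher H3K9me2 values, though some of them were also low on that array. Lzic, whose nearest probe lay 481 bp from Nmnat1, had 1.06 and 0.90 on the PRDM2 arrays and -0.25 on the H3K9me2 array, and H3K9me2 at Nmnat1 minus H3K9me2 at Lzic was -3.84. Rbp7, a retinol-binding protein gene 26403 bp to the other side, had 1.97 and 1.23 for PRDM2, against 0.68 for H3K9me2. For Plekha3 the neighbour was Fkbp7, which encodes a prolyl isomerase of the endoplasmic reticulum; 2340 bp away, it had -0.02 and 0.07 for PRDM2, against -0.59 for H3K9me2. Both of its PRDM2 values were below those of Plekha3.

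Around Nek8, Tlcd1 came nearest to the same pattern. It lay 2244 bp away, encodes a membrane protein that acts on phospholipid composition, and had 0.31 and -0.46 for PRDM2, against -1.33 for H3K9me2. That H3K9me2 value was at percentile 5.11 of all promoters. Like Nek8, Tlcd1 was higher on PRDM2 array 1 than on array 2. Traf4, an adaptor gene of receptor signalling 9198 bp to the other side, had 1.05 and 1.16 for PRDM2, against -0.24 for H3K9me2. The neighbours of Selenbp1 were Rfx5, a transcription factor gene of MHC class II expression, with 0.76 and 0.28 for PRDM2, against -0.44 for H3K9me2, and the proteasome subunit gene Psmb4, with 1.17 and 0.98, against -0.30. Ly6i, a family member 61942 bp from Ly6c, had 1.15 and -0.13 for PRDM2, against -1.03 for H3K9me2, at percentile 11.4. Each of the 5 genes thus had a lower H3K9me2 value than each of its neighbours, with log2 differences between -4.77 and -1.31, and these values were among those that chose the genes. With dim probes at their upper bound, H3K9me2 was -1.38 at Plekha3 and -1.85 at Nek8, nearer to Fkbp7 and Tlcd1.

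**Figure D4:**
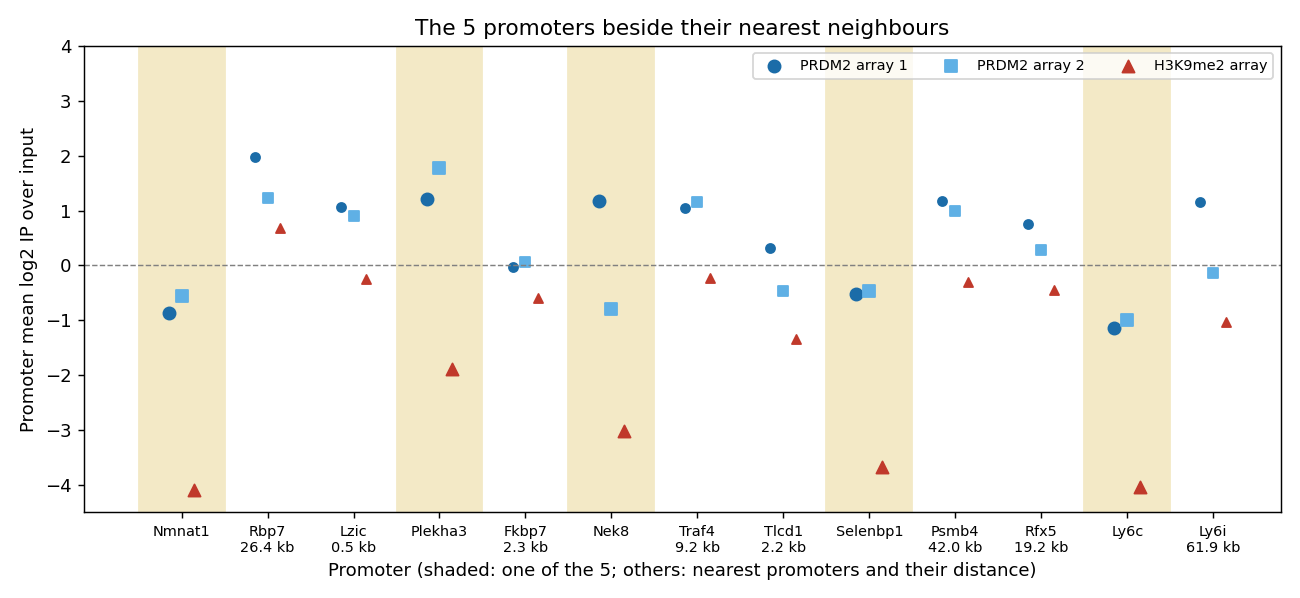
Promoter mean of log2 IP over input (vertical axis) on the 3 arrays, for the 5 genes (shaded) and the nearest promoter of another gene on either side within 100000 bp, with its distance. H3K9me2 (triangles) lies between -4.09 and -1.89 in the shaded columns and between -1.33 and 0.68 in the others.

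The promoters most like each gene, by the Euclidean distance over the 3 arrays' values, were in part the other genes of the group. Nmnat1 lay nearest to Ly6c, at a distance of 0.52, and next to Ang4, a ribonuclease gene of the angiogenin family, also at 0.52. Selenbp1 lay nearest to Nmnat1, at 0.54, and Ly6c nearest to Ang4, at 0.37. Ang4 had -0.91 and -0.94 for PRDM2, against -3.74 for H3K9me2, on 3 probes. The nearest to Plekha3 were Rangap1, the GTPase activator gene of Ran, at 0.91, and Anapc11, a subunit gene of the anaphase-promoting complex, at 0.92. The nearest to Nek8 were the centriole gene Sfi1, at 0.71, with 0.82 and -1.31 for PRDM2, against -2.69 for H3K9me2, and Tnfsf5ip1, at 0.79. Such a distance over 3 arrays describes a pattern of signal and nothing else.

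Just inside and outside the set of chosen genes the values ran on without a step. Ly6c, the lowest of the 5, had a difference of 2.97, and the next promoters were the proteasome gene Psmb3 with 2.90, the aminopeptidase gene Xpnpep3 with 2.90, Wdr78, a dynein subunit gene of motile cilia, with 2.87, Smcr8 with 2.85 and Igfbp7, which encodes a secreted binding protein of insulin-like growth factors, with 2.82. Igfbp7 differed in kind, with 2.39 and 3.47 for PRDM2, against 0.11 for H3K9me2. Smcr8 resembled Nek8 in that the PRDM2 arrays disagreed, with -0.29 and 2.81, against -1.58 for H3K9me2.

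The relatives of the 5 genes were examined in 5 lists, which leave out the 5 genes themselves and were chosen with earlier results of these data known. In these lists 0 of 110 promoters had H3K9me2 under -3, beside 0.0681% of all promoters. The median difference was 0.92 over the NAD metabolism genes, 1.07 over the NEK kinases and genes of the inversin compartment or nephronophthisis, 0.89 over the PLEKHA family and Golgi lipid genes, 0.91 over the selenium genes and 0.82 over the LY6 family, beside 0.85 over all promoters. Limma called the difference higher at 11 of 25 NAD, 13 of 25 NEK, 9 of 19 PLEKHA, 7 of 19 selenium and 9 of 22 LY6 promoters, beside 41.1% of all promoters, shares near that background. Over the 5 lists it called the difference higher at 49 and lower at 0 of the 110 promoters (68 and 0 unadjusted, p under 0.05), beside 1.6% of all promoters called lower. These counts depended on the processing: they were 2 higher and 3 lower with loess, 3 and 0 with the GC trend removed, and 0 and 0 with the median over probes, where 23 were higher and 2 lower with an unadjusted p under 0.05. With each array centred on its median promoter, the median difference of all promoters was 0.11, and limma called 0 of the 110 either way, beside 119 higher and 490 lower over all promoters. At an unadjusted p under 0.05 the counts there were 13 higher and 5 lower of the 110, beside 1575 and 1570 over all promoters. With normexp background correction the median difference was below 0 in all 5 lists, between -0.97 and -0.14, beside -0.31 over all promoters, and limma called 0 of the 110, with 0 higher and 24 lower when unadjusted.

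PRDM2 over input was called higher at 45 and lower at 2 of the 110 promoters, beside 46.9% and 1.08% of all promoters (limma, adjusted p under 0.05). This split also followed the scaling: it was 18 higher and 14 lower with each array centred on its median promoter, beside 2774 and 2100 over all promoters, and 15 and 17 with loess, beside 3338 and 1160.

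In the NAD list, limma called PRDM2 higher at 11 of 25 promoters and lower at 1. With the median promoter as 0 the counts were 2 higher and 3 lower, and with loess 4 and 3. Here and in the next lists, a difference was tested against 0, beside a median difference of 0.85 over all promoters. With the median promoter as 0, or with the median over probes, no promoter of the lists was called for the difference. Parp1, which consumes NAD in DNA repair, had 0.75 and 0.65 for PRDM2, against -1.18 for H3K9me2, a difference of 1.88 (limma, adjusted p = 0.0116). Afmid, an enzyme gene of NAD synthesis from tryptophan, had the lowest H3K9me2 of the list, with 0.43 and -0.29 for PRDM2, against -1.91 for H3K9me2, a difference of 1.98 (limma, adjusted p = 0.0123). Sirt1, a deacetylase that uses NAD, had high PRDM2, 2.03 and 1.51, beside H3K9me2 of 0.72. Its PRDM2 mean of 1.77 became 0.43 with the GC trend removed. Nadsyn1, the last enzyme of the synthesis from nicotinic acid, was the promoter called lower for PRDM2, with -0.74 and -0.89 (limma, adjusted p = 0.00614), beside -1.34 for H3K9me2.

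Among the relatives of Nek8, PRDM2 was called higher at 9 of 25 and lower at 1, beside 46.9% and 1.08% of all promoters, and at 5 each way with the median promoter as 0. Nek4, another NIMA-family kinase, had 1.75 and 2.81 for PRDM2, against 0.42 for H3K9me2, a difference of 1.86 (limma, adjusted p = 0.0148). Tmem67, a gene of the ciliary transition zone, had the lowest H3K9me2 of all 5 lists, with -0.50 and -0.02 for PRDM2, against -2.35 for H3K9me2, and the largest difference of the list, 2.09 (limma, adjusted p = 0.0114). Nek9, a mitotic kinase, was called lower for PRDM2, with -0.69 and -0.44 (limma, adjusted p = 0.0375), and its H3K9me2 value was -0.61.

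The relatives of Plekha3 had PRDM2 called higher at 11 of 19 and lower at 0 (0 also unadjusted), beside 46.9% and 1.08% of all promoters. With the median promoter as 0 the counts were 5 higher and 0 lower, and with loess 3 each way. Plekha2, an adaptor that binds phosphoinositides at the plasma membrane, had 0.88 and 1.00 for PRDM2, against -0.77 for H3K9me2, a difference of 1.71 (limma, adjusted p = 0.013). Gltp, which transfers glycolipids, had 0.95 and 0.57, against -0.69. Col4a3bp, the ceramide transporter between the endoplasmic reticulum and the Golgi, had high signal with both antibodies. It had 2.32 and 1.80 for PRDM2 beside 1.06 for H3K9me2. With the GC trend removed its PRDM2 mean went from 2.06 to 0.58.

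For the selenium genes PRDM2 was called higher at 7 of 19 and for the LY6 family at 7 of 22, beside 46.9% of all promoters, and lower at 0 in both (0 also unadjusted), beside 1.08%. With the median promoter as 0 the counts were 3 each way in both lists, and with loess they were 2 higher and 1 lower for the selenium genes and 2 higher and 9 lower for the LY6 family. Pstk, a kinase needed to make selenocysteine, had 0.16 and 0.51 for PRDM2, against -1.54 for H3K9me2, a difference of 1.87 (limma, adjusted p = 0.0119). Sephs1, a selenophosphate synthetase relative, had 0.64 and 1.04 for PRDM2, against -0.94 for H3K9me2. Txnrd3, a thioredoxin reductase with selenocysteine, had 2.11 and 1.30, beside 0.79 for H3K9me2. The PRDM2 mean of Txnrd3 was 1.71, and 0.95 with the GC trend removed. In the LY6 family, Lypd6 had 0.78 and -0.09 for PRDM2, against -1.24 for H3K9me2, a difference of 1.58 (limma, adjusted p = 0.018), while Ly6g6e had high PRDM2, 2.36 and 0.92, beside 0.64 for H3K9me2. With normexp background correction the lowest limma adjusted p among these named relatives was 0.439 for the difference and 0.39 for PRDM2 over input.

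The size of the difference at the 5 genes depended on how background was treated. With normexp correction of the unprocessed signals in place of the processed ones, it was 0.55 at Nmnat1, 0.70 at Plekha3, 0.64 at Nek8 and 0.23 at Selenbp1, and it turned to -0.37 at Ly6c, whose PRDM2 mean was then -1.86, against -1.49 for H3K9me2. With loess within each array the differences lay between 1.48 and 2.06. With IP and input required to be well above background, Ly6c kept 2.97, Plekha3 had 1.11, with 1.97 for PRDM2 against 0.86 for H3K9me2, and the other 3 had too few probes for a value. With each array centred on its median promoter, the differences were 2.65 at Nmnat1 and Plekha3, 2.48 at Nek8, 2.45 at Selenbp1 and 2.24 at Ly6c. At Nek8 the difference was 2.23 without PRDM2 array 1 and 4.19 without PRDM2 array 2, while at the other 4 genes leaving out either array gave values between 2.90 and 3.67.

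**Figure D5:**
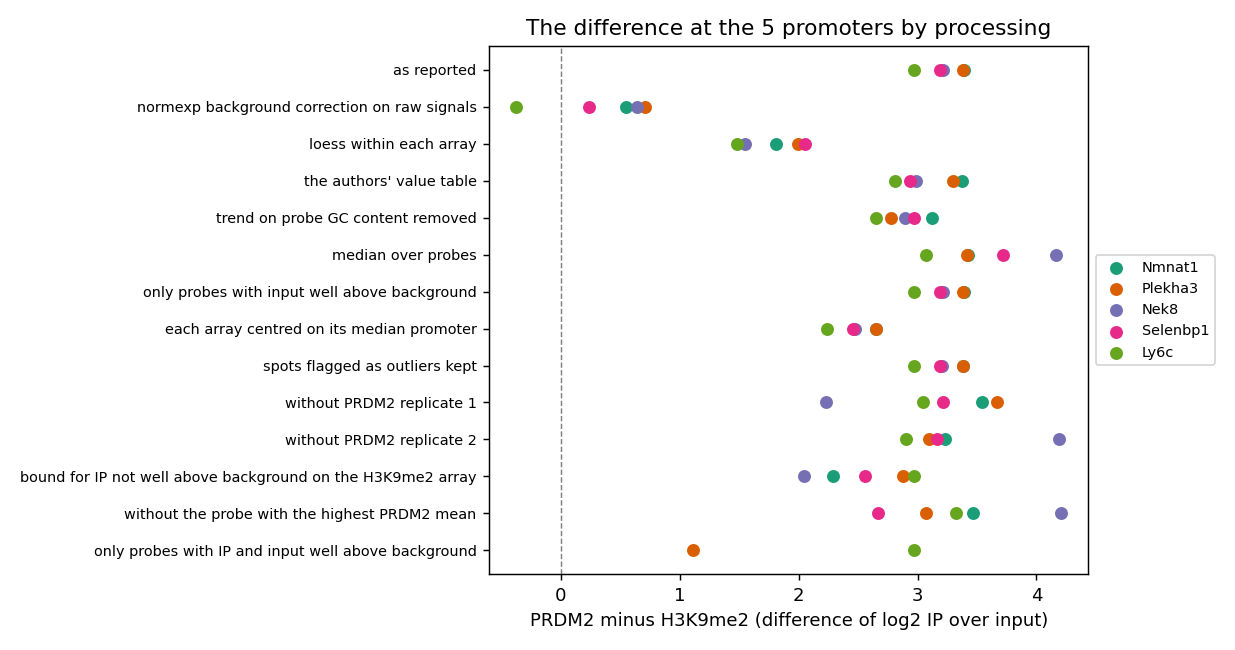
The difference of PRDM2 minus H3K9me2 (horizontal axis, difference of log2 IP over input, dashed line at 0) at each of the 5 genes under each way of processing (rows). The values lie between 2.97 and 3.39 as reported, between -0.37 and 0.70 with normexp correction and between 1.48 and 2.06 with loess; the bottom row has values for Plekha3 and Ly6c only.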

How the data were processed

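The processed intensities deposited in the scanner files came, per the file headers, from Agilent Feature Extraction 10.5.1.1 (detrending, background subtraction, linear dye normalization, surrogate values for dim spots), and the deposited raw intensities are mean spot signals and median local backgrounds. The deposited log10 ratios of red over green served as a check. The authors' deposited value table holds log2 values of IP over input, a scale taken from its correlation of 0.965, 0.940 and 0.972 with the scanner files. Its tool and centring were not stated (medians 0.124, 0.103 and 0.278).

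From the 237203 probes outside the controls, the log2 of red (Cy5, IP) over green (Cy3, input) processed signal was taken, without outlier spots (773, 107 and 218), and the median probe of each array was set to 0. Probes of 1 gene name, split at gaps over 10000 bp, formed promoters, and those with at least 3 probes on every array were kept (16164 of 16483). IP was well above background at 75.7%, 71.1% and 78.9% of probes, input at 98.0%, 99.02% and 92.8%. Fits used limma 3.58.1 (lmFit, eBayes, Benjamini-Hochberg over all promoters) in R 4.3.3, with the H3K9me2 array, which has no replicate, assumed to vary like the PRDM2 arrays, and were tested on simulated data. The number of arrays limits precision. Python 3.11.15, numpy 2.4.6, pandas 2.3.3, matplotlib 3.10.9 and data.table (1.17.8) were also used.

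The members and lists were chosen with earlier results of these data known. Besides the members, promoters were named by rule: the next in rank of the difference, the nearest neighbours, the 2 most alike, and in each list those with the largest differences or called for PRDM2; results for 1 promoter named by the rule are not given. Alternatives were normexp background correction, loess, the value table, removal of the GC trend, filters on dim probes, outliers kept, the median over probes, another zero point and each PRDM2 array left out.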

Additional observations from a re-analysis of the deposited data

How the results depend on the processing

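Of the 11 alternatives planned, keeping outlier spots or requiring bright input could not add or drop any of the 20 probes. None of these probes was an outlier spot, and all had input well above background. That no difference of the 5 genes moved by more than the SD of the PRDM2 arrays there was thus fixed in advance. With normexp correction the difference was 0.55 at Nmnat1, 0.70 at Plekha3, 0.64 at Nek8, 0.23 at Selenbp1 and -0.37 at Ly6c. With loess it was 1.81, 2.00, 1.55, 2.06 and 1.48 at the same genes, while the median promoter as 0 gave 2.65 at Nmnat1, 2.65 at Plekha3, 2.45 at Selenbp1 and 2.24 at Ly6c. With the GC trend removed it was 3.12 at Nmnat1, 2.78 at Plekha3, 2.97 at Selenbp1 and 2.65 at Ly6c, 2.94 at Selenbp1 and 2.81 at Ly6c with the authors' values, and with the median over probes 3.72 at Selenbp1 and 3.07 at Ly6c. With only probes bright in IP and input it was 1.11 at Plekha3, where H3K9me2 turned to 0.86. That filter gave no value at Nmnat1, Nek8 and Selenbp1. The values given so far moved by more than the SD of the PRDM2 arrays at the gene, 1.38 at Nek8. Smaller moves at Nek8 gave 2.48 with the median promoter as 0 and 2.89 with the GC trend removed. They gave 2.99 with the authors' values and 4.17 with the median over probes. Among alternatives chosen after seeing the data, the bound for dim probes gave 2.29 at Nmnat1, 2.88 at Plekha3, 2.04 at Nek8 and 2.56 at Selenbp1. Leaving out the probe highest in PRDM2 gave 4.21 at Nek8, 2.67 at Selenbp1 and 3.32 at Ly6c. Without either PRDM2 array the difference ranged from 3.23 to 3.54 at Nmnat1, 3.10 to 3.67 at Plekha3, 2.23 to 4.19 at Nek8, 3.16 to 3.21 at Selenbp1 and 2.90 to 3.04 at Ly6c. The PRDM2 mean of Nek8 was negative with the authors' values (-0.30), the median over probes (-0.77), the median promoter as 0 (-0.31) and without PRDM2 array 1 (-0.79), beside 1.17 without PRDM2 array 2.

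Over all promoters limma called 6903 differences and 7760 PRDM2 values. These counts were 1881 and 4498 with loess, 582 and 2363 with the GC trend removed, 609 and 4874 with the median promoter as 0, and 0 and 933 with the median over probes (2717 higher and 990 lower differences at an unadjusted p under 0.05). The differences were 3849 with the authors' values and 0 with probes bright in IP and input (4234 higher and 144 lower unadjusted). With normexp both counts were 0, with 330 higher and 1772 lower differences and 1452 higher and 502 lower PRDM2 values at an unadjusted p under 0.05. The split of higher and lower differences was 6645 and 258 as reported, 488 and 1393 with loess, 395 and 187 with the GC trend removed and 119 and 490 with the median promoter as 0.

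Among the relatives, the difference turned below 0 with normexp at Afmid (-0.33), Sirt1 (-0.11), Nek4 (-0.47), Plekha2 (-0.14), Gltp (-0.47), Col4a3bp (-0.50), Pstk (-0.038), Lypd6 (-0.0053) and Ly6i (-0.14), and with loess at Col4a3bp (-0.076). PRDM2 turned to 0.13 at Nek9 with normexp, to -0.16 at Gltp with loess and to -0.085 at Sephs1 with the median over probes. The causes of these changes were not tested. No paired analysis was possible because only replicate number 1 occurs in both groups. Counts of calls without a PRDM2 array were not run, since no residual degree of freedom remains.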

Other observations

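The high input of Ly6c had a counterpart on its chromosome. The median promoter input over 617 promoters of chromosome 15 relative to the array median was 0.74 and 0.70 on the log2 scale for PRDM2 and 0.74 for H3K9me2, beside 0.03, 0.04 and -0.10 over the promoters of the other chromosomes. Within chromosome 15, Ly6c stood at percentiles 99.5, 99.7 and 99.4 of input on the same arrays.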
